A study of Mus musculus with 18 samples.

Results

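Transcripts of 8 genes of neutrophils and other myeloid cells were followed in mouse tibialis anterior muscle: the alarmin genes S100a8 and S100a9, the cytokine gene Il1b, the receptor genes Csf3r, Clec4d and Clec4e, and the genes of the secreted proteins Chil3 and Retnlg. They are 8 of 29433 genes with a count. They were chosen by name with their values in the tumour and control libraries known, so the differences between tumour and control are given for them as a description, with no test. All 8 passed the filter on low counts that left 16089 genes for testing.

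Muscle RNA was sequenced in 18 libraries, 2 labelled biological replicates for each of 9 groups, from mice with tumours and from their controls. LLC, a Lewis lung carcinoma line, was injected into muscle of C57BL/6 mice, and its controls received PBS. C26, a colon carcinoma line, was placed under the skin of CD2F1 mice, and its controls also received PBS. KPC (50000 cells) and KPCML1 (1000 cells) were placed orthotopically in C57BL/6 mice, and both are set against the same 2 controls that received Matrigel alone. KPP is a genetic tumour model on C57BL/6 in which tamoxifen induces the tumours, and its controls are mice of that model without a tumour. The labels give neither the alleles and Cre driver of KPP, nor whether its controls received tamoxifen, nor age or sex. Each transplanted model is 1 line at 1 dose, so the KPC and KPCML1 groups differ, by their titles, in line and in cell number together. The name of 1 deposited comparison table carries a cell number that matches neither title, so the cell numbers here are those of the titles alone. Levels are given in CPM, which corrects counts for library size, or between genes in TPM, which also corrects for transcript length, and pairs of values are replicates 1 and 2.

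S100A8 and S100A9 pair to form calprotectin, an abundant cytosolic protein of neutrophils that is released as an alarm signal and engages TLR4 and RAGE. Myeloid cells that receive such signals can transcribe Il1b, the precursor of a secreted cytokine, and the lectins encoded by Clec4d and Clec4e, while G-CSF drives the production of neutrophils through the receptor encoded by Csf3r. In muscle, neutrophils and monocytes are scarce at rest and enter after injury.

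S100a8 (chr3:90668978-90670035, plus strand, build mm10) and S100a9 (chr3:90692632-90695721, minus strand) are neighbours, 22596 bases apart. Clec4d (chr6:123262111-123275265, plus) and Clec4e (chr6:123281789-123289870, minus) are likewise neighbours, with 6523 bases between them. Il1b lies at chr2:129364570-129371139 (minus), Csf3r at chr4:126024550-126044440 (plus), Chil3 at chr3:106147554-106167564 (minus) and Retnlg at chr16:48872621-48874496 (plus). All 8 are annotated as protein-coding. Since most of the 8 stood higher in the tumour libraries, their promoter windows in the RefSeq table (build GRCm38.p6, 250 bases before to 50 after the start) were searched on both strands for the letters of 4 factors of myeloid transcription. The C/EBP letters TTGCNNAA were in the windows of S100a9, Clec4e and Retnlg and in 10.8% of 32851 windows, and the PU.1 letters GAGGAAGT were in that of S100a8 and in 3.20% of windows. The NF-kB letters GGGNNTTCC and the AP-1 letters TGANTCA were in 0 of the 8 windows, against 5.82% and 7.81% of all. The 250 bases before the start are shown for the 4 genes with a match, 5′ to 3′ on the gene's strand with the match in capitals. They are chr3:90668821-90669070 (plus), chr3:90695722-90695971 (minus), chr6:123289872-123290121 (minus) and chr16:48872358-48872607 (plus).
S100a8: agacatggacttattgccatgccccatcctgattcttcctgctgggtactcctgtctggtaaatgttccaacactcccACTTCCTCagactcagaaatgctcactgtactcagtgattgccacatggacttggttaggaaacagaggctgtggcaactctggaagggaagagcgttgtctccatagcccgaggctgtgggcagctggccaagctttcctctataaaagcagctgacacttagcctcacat
S100a9: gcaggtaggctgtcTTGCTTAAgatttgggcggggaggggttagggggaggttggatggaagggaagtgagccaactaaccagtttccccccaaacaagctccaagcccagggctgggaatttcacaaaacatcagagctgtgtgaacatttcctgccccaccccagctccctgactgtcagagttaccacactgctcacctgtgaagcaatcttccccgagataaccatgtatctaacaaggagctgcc
Clec4e: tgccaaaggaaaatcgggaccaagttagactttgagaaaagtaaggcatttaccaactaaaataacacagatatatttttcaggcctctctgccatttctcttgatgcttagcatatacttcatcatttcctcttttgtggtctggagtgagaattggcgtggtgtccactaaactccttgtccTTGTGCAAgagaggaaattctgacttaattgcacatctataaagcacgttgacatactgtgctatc
Retnlg: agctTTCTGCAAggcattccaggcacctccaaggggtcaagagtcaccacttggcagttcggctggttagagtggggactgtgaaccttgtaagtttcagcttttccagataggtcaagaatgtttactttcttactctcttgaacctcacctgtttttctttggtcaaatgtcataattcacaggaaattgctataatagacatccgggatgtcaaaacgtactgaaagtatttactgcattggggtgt
The matches begin at position -172 in S100a8, -236 in S100a9, -66 in Clec4e and -246 in Retnlg, counted from the RefSeq start. The PU.1 and C/EBP letters thus lie in the windows of different members, and 4 of the 8 windows hold no match. A match describes these letters and is not a measured binding site.

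The libraries held 22546541 to 36673780 fragments. Among tested genes, 7.39% were called higher and 6.24% lower in LLC, 4.15% and 4.38% in KPCML1, 15.3% and 13.7% in KPC, 11.5% and 9.80% in C26, and 17.4% and 19.3% in KPP (edgeR, adjusted p below 0.05). The summed level of 8 skeletal muscle markers ran from 109700 to 162800 CPM in 17 libraries and was 66150 CPM in C26 tumour replicate 2. In whole muscle, more cells that carry a transcript and more transcript per cell cannot be told apart.

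S100a8 encodes the smaller calprotectin subunit. In the controls it lay at 0.340 and 0.0752 CPM (LLC), 0.422 and 0.205 (Matrigel), 0.216 and 0.0319 (C26) and 0.212 and 0.499 (KPP). In the tumour groups it was 1.67 and 1.15 CPM (LLC), 4.15 and 8.91 (KPCML1), 24.3 and 17.1 (KPC), 4.26 and 19.9 (C26) and 8.05 and 46.4 (KPP). All 10 tumour libraries lay above all 8 controls, and the counts behind them ran from 31 to 1532 against 1 to 13. The share of all tested genes that separate in this way is not given here. For this and the other members, a lack of overlap is therefore a description and does not set them apart from other genes. On the log2 scale the fitted difference of tumour from control, with its standard error, was 2.78 ± 1.15 in LLC, 4.35 ± 0.98 in KPCML1, 6.02 ± 1.00 in KPC, 6.61 ± 1.12 in C26 and 6.31 ± 1.02 in KPP. Replicate 2 was the high library in both C26 and KPP, 4.68 and 5.76 times replicate 1, so that neighbouring groups overlapped in the order KPCML1, C26, KPC, KPP and only LLC stood below the other 4. Without replicate 2 the log2 fold change was 5.12 in C26 and 4.62 in KPP, without C26 control 1 it was 8.35 in C26, and without LLC control 1 it was 4.14 in LLC.

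S100a9 encodes the partner subunit. Its controls were at 0.680 and 0.338 CPM (LLC), 0.551 and 0.239 (Matrigel), 0.108 and 0.159 (C26) and 0.283 and 0.400 (KPP). Its tumour libraries were at 3.34 and 2.45 CPM (LLC), 6.28 and 13.4 (KPCML1), 31.2 and 18.9 (KPC), 1.84 and 2.13 (C26) and 7.84 and 10.2 (KPP). Again every tumour library exceeded every control, but the replicates were closer, at most 2.13 times apart in a tumour group. The log2 fold changes were 2.51 ± 0.48 (LLC), 4.61 ± 0.48 (KPCML1), 5.96 ± 0.50 (KPC), 3.84 ± 0.57 (C26) and 4.74 ± 0.50 (KPP). By mean level the order was C26 (1.99 ± 0.207 CPM, SD, n = 2), LLC (2.90 ± 0.628), KPP (9.01 ± 1.65), KPCML1 (9.83 ± 5.02) and KPC (25.1 ± 8.65), in which only KPP and KPCML1 overlapped as neighbours.

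**Figure D1:**
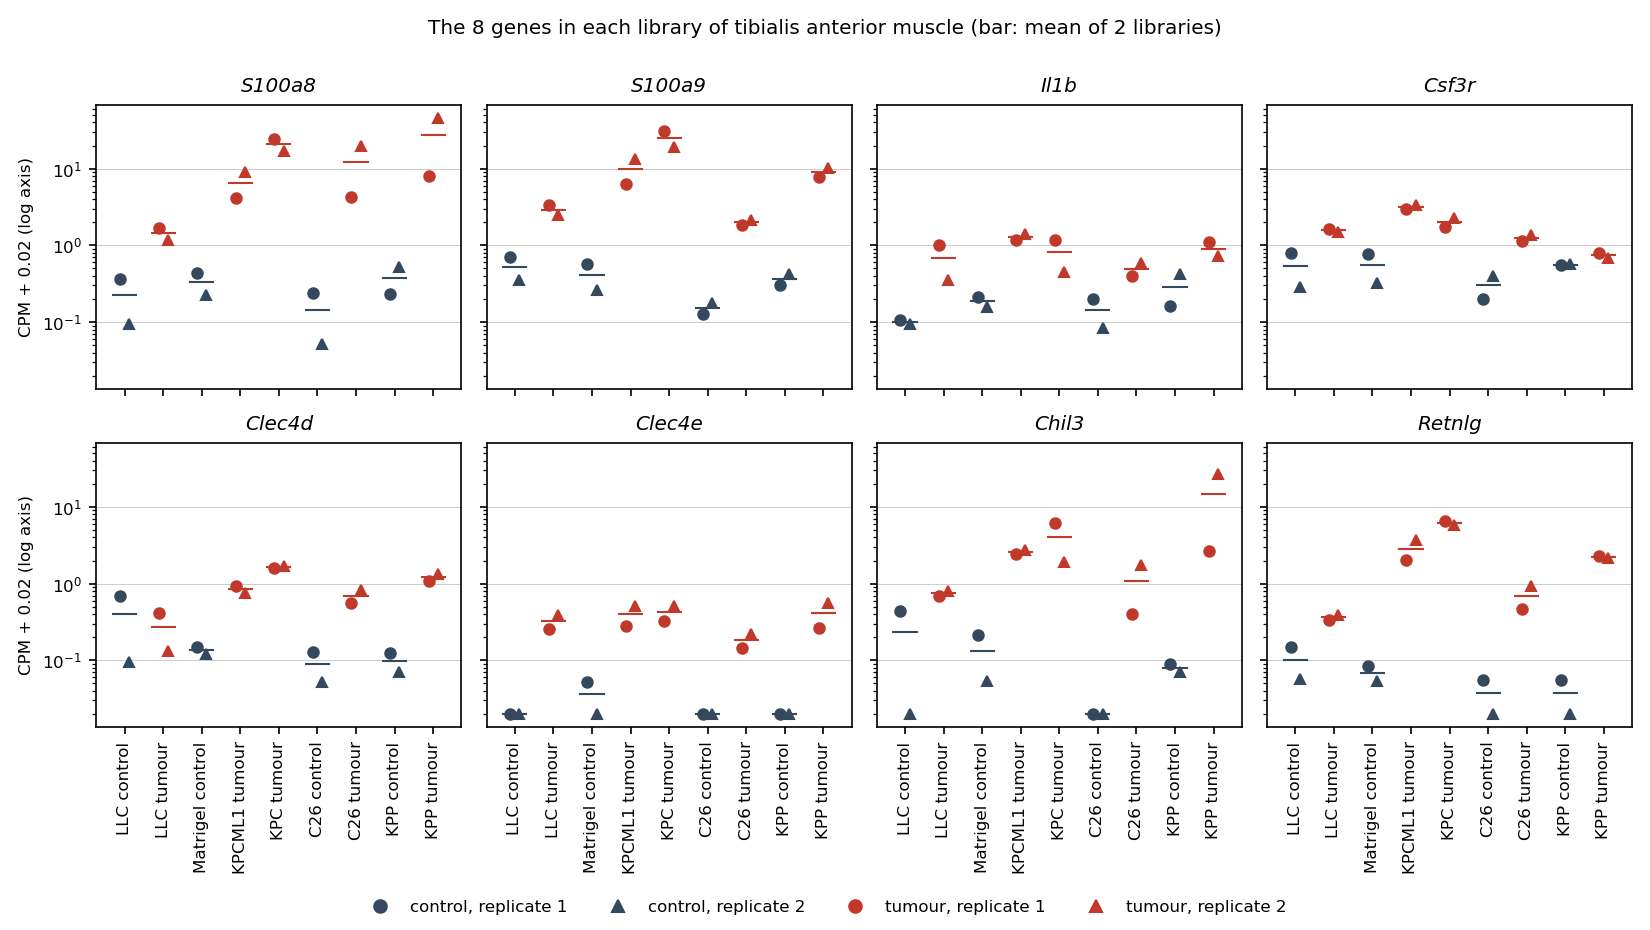
Level of each of the 8 genes (CPM + 0.02, log axis) in the 2 libraries of each group, with a bar at the group mean; controls are dark and tumour groups red. S100a8, S100a9, Clec4e and Retnlg have all 10 tumour libraries above all 8 controls, Clec4d overlaps its control in LLC, and KPP replicate 2 is at 46.4 CPM for S100a8 and 26.6 for Chil3. The share of all tested genes that separate in this way is not given.

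The subunits did not keep a fixed ratio. S100a8 counts per S100a9 count were 0.500 and 0.470 in LLC tumour, 0.661 and 0.666 in KPCML1, and 0.778 and 0.904 in KPC. In C26 tumour the ratio was 2.31 (95% exact interval 1.69 to 3.20, counting error only) and 9.33 (7.20 to 12.3). In KPP tumour it was 1.03 (0.836 to 1.26) and 4.56 (4.05 to 5.15). The 6 libraries of LLC, KPCML1 and KPC thus lay below 1 with overlapping intervals in each group, while the intervals of the 2 replicates did not overlap in C26 or in KPP. The interval of KPC replicate 2 (0.798 to 1.025) included 1. On the TPM scale, which allows for length, the 2 libraries with the most S100a8 for their S100a9 had ratios of 10.2 (C26 replicate 2) and 5.02 (KPP replicate 2). Chil3 moved the same way in those 2 libraries, at 0.812 and 2.61 counts per S100a9 count, against 0.101 to 0.386 in the other 8 tumour libraries. Retnlg per S100a9 count was 0.422 and 0.208 there and 0.0952 to 0.321 in the other 8. C26 replicate 2 is the library with the low muscle markers, and KPP replicate 2 had 124 CPM of keratinocyte markers against 5.28 in replicate 1. The part of either marker list in these ratios was not tested.

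**Figure D2:**
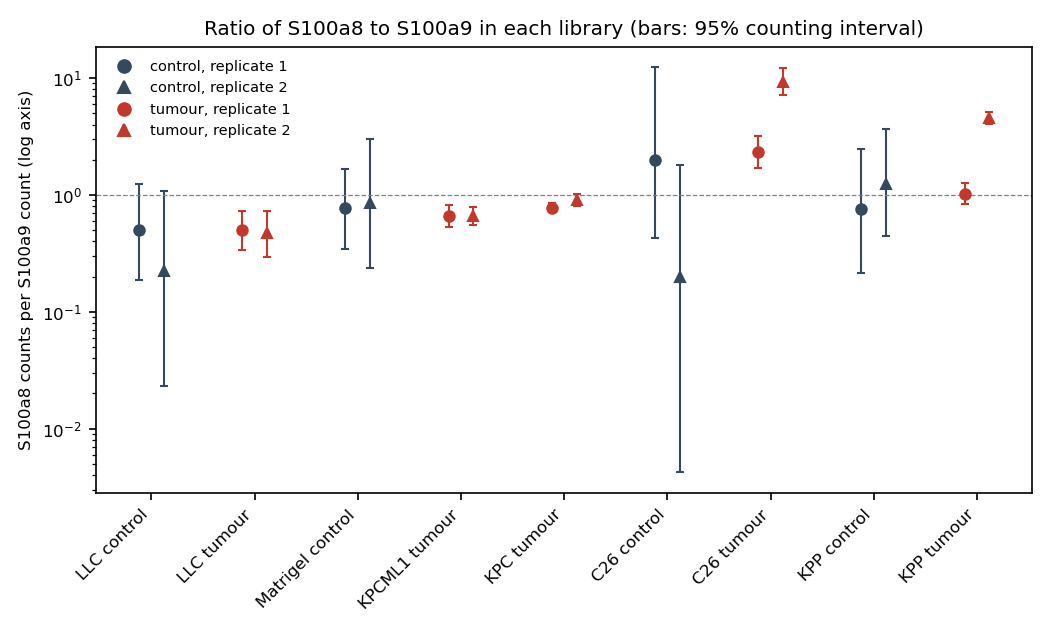
Counts of S100a8 per count of S100a9 (log axis) in each library, with the exact 95% counting interval; circles are replicate 1 and triangles replicate 2. The LLC, KPCML1 and KPC tumour libraries lie between 0.470 and 0.904, whereas replicate 2 of C26 is at 9.33 and of KPP at 4.56; the wide control bars rest on 1 to 17 counts a gene.

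Il1b, the cytokine gene, was low throughout. Its controls were at 0.0850 and 0.0752 CPM (LLC), 0.195 and 0.137 (Matrigel), 0.180 and 0.0637 (C26) and 0.141 and 0.400 (KPP). Tumour libraries were at 0.994 and 0.335 CPM (LLC), 1.17 and 1.37 (KPCML1), 1.16 and 0.426 (KPC), 0.381 and 0.567 (C26) and 1.07 and 0.697 (KPP). No comparison overlapped, and 8 of 10 tumour libraries exceeded all 8 controls. The log2 fold changes were 2.98 ± 0.83 (LLC), 2.90 ± 0.71 (KPCML1), 2.24 ± 0.71 (KPC), 1.94 ± 0.77 (C26) and 1.74 ± 0.70 (KPP). These values span a narrower range than those of S100a8, with LLC at the upper end for Il1b and at the lower end for S100a8.

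Csf3r encodes the receptor of G-CSF, the main growth factor of neutrophils. It was at 0.765 and 0.263 CPM (LLC), 0.746 and 0.307 (Matrigel), 0.180 and 0.382 (C26) and 0.531 and 0.549 (KPP) in the controls. With tumour it was at 1.63 and 1.49 CPM (LLC), 2.92 and 3.36 (KPCML1), 1.74 and 2.24 (KPC), 1.11 and 1.33 (C26) and 0.784 and 0.666 (KPP). KPCML1 held the highest libraries and KPP the lowest, and the KPP libraries stood only just above their own controls. The log2 fold changes were 1.61 ± 0.50 (LLC), 2.56 ± 0.49 (KPCML1), 1.90 ± 0.48 (KPC), 2.09 ± 0.52 (C26) and 0.42 ± 0.51 (KPP). In KPP the change of Csf3r was thus smaller than its standard error, in the same libraries in which S100a9 had a log2 fold change of 4.74.

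Clec4d and Clec4e encode C-type lectin receptors of myeloid cells (MCL and Mincle) that recognise microbial glycolipids, and Mincle also binds a protein released by dying cells. Clec4d was at 0.680 and 0.0752 CPM (LLC), 0.130 and 0.102 (Matrigel), 0.108 and 0.0319 (C26) and 0.106 and 0.0499 (KPP) in the controls. With tumour it was at 0.398 and 0.112 CPM (LLC), 0.906 and 0.746 (KPCML1), 1.58 and 1.67 (KPC), 0.540 and 0.800 (C26) and 1.07 and 1.30 (KPP). It was the 1 member whose tumour and control libraries overlapped, in LLC, where control replicate 1 held 16 counts and replicate 2 held 2. The log2 fold change was -0.55 ± 0.79 in LLC and 1.68 without that control library, and it was 2.79 ± 0.80 (KPCML1), 3.76 ± 0.79 (KPC), 3.21 ± 0.88 (C26) and 3.80 ± 0.87 (KPP) elsewhere.

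Clec4e had 0 counts in 7 of 8 control libraries and 1 count in the other, a Matrigel control (0.0324 CPM). Its tumour libraries were at 0.239 and 0.372 CPM (LLC), 0.263 and 0.497 (KPCML1), 0.305 and 0.497 (KPC), 0.127 and 0.200 (C26) and 0.248 and 0.545 (KPP), on 4 to 18 counts. Every tumour library therefore lay above every control, at levels that the depth barely resolves. Against a floor of 3 counts over the 2 controls, the ratio of Clec4e was 5.14 in LLC, 3.21 in C26 and 6.75 in KPP. The floor allows for the control counts only, and the counting error of the tumour counts is left out. Against the 1 count in Matrigel its ratio was 21.7 (95% exact counting interval 3.48 to 895) in KPCML1 and 23.7 (3.86 to 974) in KPC.

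Chil3 encodes Ym1, a chitinase-like protein made by neutrophils and alternatively activated macrophages. Its controls held 0.425 and 0 CPM (LLC), 0.195 and 0.0341 (Matrigel), 0 and 0 (C26) and 0.0707 and 0.0499 (KPP). Its tumour libraries held 0.676 and 0.780 CPM (LLC), 2.43 and 2.69 (KPCML1), 6.22 and 1.92 (KPC), 0.381 and 1.73 (C26) and 2.64 and 26.6 (KPP). No comparison overlapped, and the 2 KPP tumour libraries differed 10.1-fold (877 and 64 counts). The log2 fold change was 1.82 ± 1.34 in LLC, 4.41 ± 1.31 in KPCML1 and 5.09 ± 1.30 in KPC. Leaving out LLC control replicate 1, which held all 10 counts of that group, raised the LLC value to 7.37, a value fitted against a control at 0. Against the floor of 3 counts, the ratio of Chil3 was 20.5 in C26, with the counting error of the tumour counts left out. In KPP, against 3 control counts, its ratio was 265 (90.3 to 1285). Chil3 has near-identical relatives, so the split of reads among them is uncertain.

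Retnlg encodes a resistin-like protein of neutrophils and bone marrow. It was at 0.128 and 0.0376 CPM (LLC), 0.0649 and 0.0341 (Matrigel), 0.0360 and 0 (C26) and 0.0354 and 0 (KPP) in the controls. With tumour it was at 0.318 and 0.372 CPM (LLC), 2.02 and 3.69 (KPCML1), 6.49 and 5.76 (KPC), 0.445 and 0.900 (C26) and 2.27 and 2.12 (KPP). All 10 tumour libraries exceeded all controls, and KPC stood above the other 4 tumour groups without overlap, as it did for S100a9. The log2 fold change in LLC was 2.05 ± 0.72. Against 1 to 3 control counts the ratios were 54.3 (18.2 to 266) in KPCML1, 123 (41.9 to 601) in KPC, 39.4 (6.69 to 1595) in C26 and 106 (18.6 to 4198) in KPP.

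Compared per length, S100a8 and S100a9 were the top 2 of the 8 in all 9 groups and made up 68.4 to 93.3% of the summed TPM of the 8 in every library. The sum was 0.846 to 4.67 TPM in the controls, 20.9 and 25.3 TPM in LLC tumour, and 34.3 to 256 TPM in the other 8 tumour libraries. At rank 3 came Retnlg in 4 tumour groups (1.18 to 16.7 TPM) and Chil3 in KPP (11.6 TPM). Clec4e was last in LLC, KPCML1, KPC and C26 tumour (0.143 to 0.563 TPM), and Csf3r was last in KPP tumour (0.242 TPM). Across the 18 libraries the log2 CPM of S100a9 correlated most with Retnlg (Pearson r 0.97) and least with Csf3r (0.82), a description in which the points share libraries, depth and the split into tumour and control. Within the 9 groups, the library with more S100a9 was also that with more S100a8 in 8 groups and with more Il1b or Csf3r in 7. It had more Chil3 in 6, more Retnlg or Clec4d in 5 and more Clec4e in 4, with 3 tied. The macrophage gene Adgre1, outside the list, also gave 5 of 9, so counts near 5 carry little. Over the 5 tumour groups the order was shared by S100a8 in 5, Il1b and Chil3 in 4 and the other 4 members in 3.

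Among the genes outside the list whose log2 CPM was closest to the mean z-score of the members, over 18 libraries and 11352 genes, were Ube4a (Pearson r 0.946), Trim63, Mapk1ip1, Depp1, Cebpd, Pnrc1 and Zfyve1 (0.934). Trim63, the muscle ubiquitin ligase MuRF1, stood at 188 to 312 CPM in the control groups and 1519 to 4484 in the tumour groups. Cebpd, a transcription factor of the C/EBP family, stood at 10.5 to 20.6 CPM and 58.2 to 496 CPM. Most of the spread in these genes is the difference of tumour from control libraries, so the likeness carries little beyond it.

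KPC and KPCML1 tumours share their controls, so their tumour libraries were compared with each other directly. In this comparison 5.99% of genes were called in either direction, and 0 of the 8 members passed. These are the same tumour libraries in which the members were chosen. S100a9 was higher in KPC in both libraries, by 1.35 ± 0.38 (25.1 against 9.83 CPM), with an adjusted p of 0.0504 by edgeR's quasi-likelihood test. It passed with other size factors (0.0463), with DESeq2 (0.0130) and with no filter (4.1e-04), and not with a replicate block (0.117). S100a8 differed by 1.67 ± 0.75 (adjusted p 0.191, edgeR) and passed with no filter only (7.6e-07). Retnlg differed by 1.11 ± 0.43 (0.134), Clec4d by 0.97 ± 0.65 (0.394), Chil3 by 0.67 ± 0.94 (0.718) and Clec4e by 0.09 ± 0.73 (0.962). Il1b (-0.66 ± 0.61, 0.555) and Csf3r (-0.66 ± 0.44, 0.392) had the opposite sign, with lower means in KPC.

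Without tumours, the CD2F1 controls of the C26 experiment were set against the mean of the 3 C57BL/6 control groups, where strain and experiment cannot be told apart. Of all genes 3.95% were called, and of the members 0. Clec4e had 1 count in the Matrigel controls and 0 in the other control groups, and Retnlg had 1 count in CD2F1. Both had too few control counts for a call, so the 0 is no result about them. S100a9 was at 0.134 CPM in CD2F1 and 0.415 CPM in C57BL/6 controls (log2 difference -1.56 ± 0.58, adjusted p 0.210 by edgeR). With no filter on low counts, S100a9 (0.0322) and Chil3 (0.0258) passed in edgeR, and Chil3 had 0 counts in CD2F1. The other members had adjusted p of 0.445 or more, on at most 17 counts over both CD2F1 libraries.

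Other genes of the same pathways were read from 9 lists of 128 genes, of which 100 were tested. Called higher and lower were 13 and 1 in LLC, 14 and 0 in KPCML1, 28 and 6 in KPC, 20 and 2 in C26, and 19 and 11 in KPP. The share called higher was therefore above the background share in LLC (13 against 7.39%), KPCML1 (14 against 4.15%), KPC (28 against 15.3%) and C26 (20 against 11.5%), and near it in KPP (19 against 17.4%). The median log2 fold change of the 100 was 0.29, 0.80, 0.63, 0.40 and 0.32 in the same order, beside medians of -0.04 to 0.04 over all tested genes. Leaving out 1 library of a comparison left 2 to 8 genes higher in LLC (2 without control 1, 4 without control 2 or tumour 2, 8 without tumour 1). In KPCML1 it left 2 without Matrigel 2 or tumour 2, 4 without Matrigel 1 and 8 without tumour 1. In KPC it left 9 without Matrigel 2 and 15 without Matrigel 1 or tumour 2, in C26 7 without control 2, 8 without tumour 2 and 9 without control 1, and in KPP 8 without tumour 2 and 11 without either control. With no filter on low counts KPCML1 had 31 list genes higher, while all genes called in either direction went from 1373 to 2244. With the replicate block LLC had 8 and KPCML1 9, while all genes called fell from 2193 to 1329 and from 1373 to 690. The count over all genes also changed in the fits with 1 library left out. No share of all genes is set beside these list counts, so they do not show whether the excess over the background changed.

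**Figure D3:**
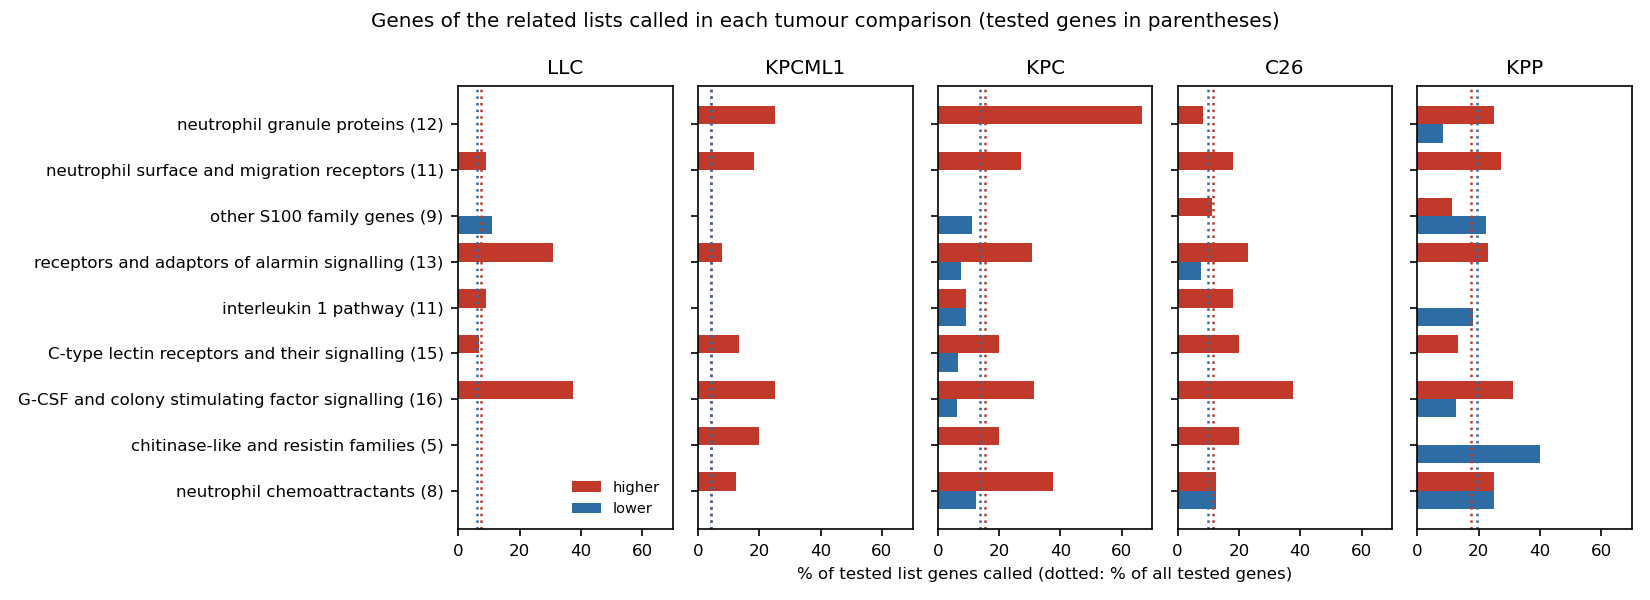
Percent of the tested genes of 9 related lists called higher (red) and lower (blue) in each tumour comparison (edgeR, adjusted p below 0.05), with dotted lines at the percent of all tested genes; the number tested is in parentheses. The neutrophil granule list reaches 8 of 12 genes higher in KPC and 0 of 12 in LLC. In KPC the calls of Cd177 and Mmp9 did not hold in every alternative fit.

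Granule genes of neutrophils were higher for 0 of 12 tested in LLC, 3 in KPCML1, 8 in KPC, 1 in C26 and 3 in KPP, where 1 was lower. Not all of the KPC calls were firm. Cd177 (adjusted p 0.0385 by edgeR) was lost with DESeq2 (0.143), and Mmp9 (0.0401 by edgeR) was lost with the replicate block (0.0722). Lcn2, which encodes the iron-scavenging granule protein lipocalin 2 and is also made outside neutrophils, rose from 0.642 ± 0.377 to 31.9 ± 3.83 CPM in KPC (SD, n = 2), a log2 fold change of 5.62 ± 0.74 (adjusted p 2.9e-04). It rose from 0.505 ± 0.0517 to 82.1 ± 43.3 CPM in C26 (7.33 ± 0.79, 9.8e-05) and from 0.935 ± 0.372 to 38.0 ± 25.5 CPM in KPP (5.38 ± 0.73, 1.8e-04), and each call held with any 1 library left out. In LLC it did not pass: its level was 1.34 ± 1.10 CPM in controls, which spread widely, and 0.690 ± 0.0756 CPM with tumour (-0.93 ± 0.81, adjusted p 0.504), in libraries where S100a8 and S100a9 were above their controls. Ngp, a gene of secondary granules, had 0 counts in all 8 controls and 4.28 ± 1.23 CPM in KPC (265 counts over both libraries, adjusted p 5.5e-04, held with each library left out). It was also called in KPP, on 15 counts (5.9 ± 1.6, adjusted p 0.0179 by edgeR), a call lost without either KPP control or KPP tumour 2. Ngp was at 0.156 CPM in KPCML1, and the direct difference passed (4.75 ± 0.77, adjusted p 0.0139 by edgeR) but not with KPC replicate 2 or either KPCML1 library left out (adjusted p up to 0.113).

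Genes of primary granules, made early in neutrophil development, were low: over the 18 libraries Mpo had 4 counts, Elane 3, Ctsg 12 and Prtn3 49, of which 14 were in C26 tumour (0.228 CPM) and 8 in KPCML1 (0.141 CPM). Camp, of secondary granules, was at 0.749 ± 0.708 CPM in KPC and at most 0.0716 CPM in any other group. The neutrophil surface marker Ly6g summed to 17 counts, 13 of them in KPC. None of these 6 passed the filter; Ctsg and Prtn3 were added after their values were seen. Of other granule genes, Ltf (lactoferrin) and Mmp8 (neutrophil collagenase) rose in KPC by 5.02 and 3.52 (adjusted p 0.0080 and 0.0082 by edgeR). Each call was lost without either Matrigel library, and without KPC tumour 1 for Ltf or KPC tumour 2 for Mmp8. Mmp8 was also called in KPP, on 45 counts against 1 (4.90 ± 1.19, 0.0059), and that call was lost only without KPP tumour 2. It was not called in KPCML1 (2.81, 0.0584), C26 (2.56, 0.0535) or LLC (1.49, 0.343).

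Of 11 tested genes of neutrophil receptors, 1, 2, 3, 2 and 3 were higher in LLC, KPCML1, KPC, C26 and KPP, and 0 were lower. Trem1, an amplifying receptor of neutrophils and monocytes, had 0 counts in Matrigel controls and 1.04 ± 0.212 CPM in KPC (adjusted p 0.0016, held with each library left out). Fpr2, a formyl peptide receptor, had 0 counts in KPP controls and 0.535 ± 0.0566 CPM in KPP tumour (0.0051, likewise held). Cxcr2, the receptor that draws neutrophils into tissue, was called in 0 comparisons, with log2 fold changes of 0.27 to 1.03. Its group means ran from 0.443 to 0.787 CPM in controls and from 0.893 to 1.43 CPM with tumour. The mean was thus higher with tumour in each comparison, by a smaller fold than that of S100a8. Whether the changes of these genes differ was not tested.

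Receptors and adaptors that carry alarmin signals had 4, 1, 4, 3 and 3 of 13 tested genes higher and 0, 0, 1, 1 and 0 lower. Tlr4, the receptor of calprotectin, rose from 2.33 ± 0.463 to 9.51 ± 6.73 CPM in KPP (2.03 ± 0.43, adjusted p 0.0026). Its log2 fold change was 1.96 ± 0.44 in LLC and 1.93 ± 0.43 in C26, calls that were lost without either LLC control or LLC tumour 1 (adjusted p up to 0.0931) and without C26 control 2 or C26 tumour 2 (up to 0.0717). Cd14, the TLR4 co-receptor, rose from 1.06 ± 0.197 to 5.82 ± 0.561 CPM in KPC (2.45 ± 0.30, 1.7e-04). Irak1, a kinase downstream of TLR and IL-1 receptors, rose by 0.77 ± 0.14 in C26 and 0.73 ± 0.14 in KPP.

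Within the interleukin 1 list 1, 0, 1, 2 and 0 of 11 tested genes were higher and 0, 0, 1, 0 and 2 lower. Il1r2, the decoy receptor, rose from 0.133 to 2.81 ± 1.30 CPM in KPC (4.35 ± 0.97, adjusted p 0.0052, and 0.0540 without Matrigel 2). Gsdmd, which encodes the pore protein through which IL-1β leaves cells, fell in KPC from 2.50 to 0.957 CPM (-1.37 ± 0.36, 0.0123, and up to 0.0934 without Matrigel 2 or KPC tumour 2). Il1rn, the receptor antagonist, did not pass the filter.

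The C-type lectin list had 1, 2, 3, 3 and 2 of 15 tested genes higher and 1 lower, in KPC. Clec10a, a lectin of macrophages and dendritic cells, rose from 1.18 ± 0.0280 to 8.29 ± 0.00711 CPM in KPCML1 (2.81 ± 0.44, adjusted p 0.0030) and to 5.60 ± 4.13 CPM in KPC (2.24 ± 0.43, 0.0024). Clec4n, which encodes the lectin Dectin-2, passed in 0 of the 5 comparisons, with log2 values of 0.58 to 2.54. Fcer1g, the signalling chain that Mincle uses, also passed in 0, with -0.15 to 0.78.

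The G-CSF and colony stimulating factor list had 6, 4, 5, 6 and 5 of 16 tested genes higher and 0, 0, 1, 0 and 2 lower. Cebpd rose by 2.46 ± 0.40 in LLC, 4.05 ± 0.42 in KPCML1, 4.63 ± 0.43 in KPC, 2.79 ± 0.40 in C26 and 4.42 ± 0.43 in KPP, and each of these calls held with any 1 library of its comparison left out. Cebpb, which drives emergency production of neutrophils, rose by 2.47 ± 0.33, 1.38 ± 0.32, 1.87 ± 0.32, 0.95 ± 0.32 and 1.79 ± 0.32, and its calls in KPCML1 and C26 were lost without either control or without tumour replicate 2 (adjusted p up to 0.159 and 0.436). Cebpb in C26 was also lost with RLE size factors and with the replicate block (up to 0.0606). Both genes are expressed widely and stood at 10.5 to 62.1 CPM in the controls, where Csf3r stood at 0.281 to 0.540 CPM. Csf3, the G-CSF gene itself, had 32 counts over both KPC libraries, 19 in KPP tumour, 2 in LLC tumour and 0 elsewhere, and was called in 0 comparisons. Socs3, an inhibitor induced by STAT3, rose by 2.54 ± 0.79 in C26 and 3.03 ± 0.82 in KPP, where the replicates spread widely (27.5 ± 35.5 CPM), and the call was lost without any 1 library in C26 (adjusted p up to 0.193) and without either control or tumour 2 in KPP (up to 0.215) or with the replicate block (0.165).

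As a set, the other S100 genes did not follow S100a8 and S100a9: of 9 tested, 0, 0, 0, 1 and 1 were higher and 1, 0, 1, 0 and 2 lower, with median log2 values of -0.61, 0.07, -0.22, -0.41 and -0.20. Those called higher were S100a13 in C26 (0.67 ± 0.23, adjusted p 0.0479 by edgeR) and S100a4 in KPP (1.37 ± 0.50, 0.0436). S100a11, an S100 gene of many cell types, fell in KPP from 14.2 ± 4.17 to 6.36 ± 2.87 CPM (-1.16 ± 0.32, adjusted p 0.0129), and not without KPP control 1 or tumour 1 (up to 0.140). Of 5 tested chitinase-like and resistin genes, 0, 1, 1, 1 and 0 were higher and 0, 0, 0, 0 and 2 lower. Retnla, a relative of Retnlg and a gene of alternatively activated macrophages, passed in 0 of the 5, on group sums of 0 to 329 counts whose replicates lay far apart (2.12 ± 3.00 CPM in Matrigel controls). Of 8 tested chemoattractant genes 0, 1, 3, 1 and 2 were higher and 0, 0, 1, 1 and 2 lower. Cxcl12, whose product holds neutrophils in the bone marrow, fell from 63.6 ± 3.35 to 22.4 ± 3.75 CPM in KPC (-1.51 ± 0.26, adjusted p 0.0012) and from 66.0 ± 1.77 to 12.3 ± 0.522 CPM in KPP (-2.43 ± 0.27, 6.2e-05). Cxcl1, a ligand of CXCR2, rose from 0.306 ± 0.132 to 1.55 ± 0.676 CPM in KPP (2.37 ± 0.64, 0.0106, and up to 0.104 without KPP control 1 or tumour 2).

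Whether the tumour effect of these genes differed among the 5 models was tested jointly, where 8.32% of all genes and 13 of the 100 list genes were called. Lcn2 had the smallest adjusted p of those named (0.0058).

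Markers of other cells moved in part with the members. Erythroid markers were higher for 6, 7 and 7 of 8 genes in LLC, KPCML1 and KPC and for 0 in C26 and KPP, and lower for 1, 0, 0, 1 and 1 in LLC, KPCML1, KPC, C26 and KPP. Their sum was 403 to 490 CPM in LLC controls and 910 to 2651 with tumour, 455 to 500 in Matrigel controls, 3040 to 6900 in KPCML1 and 2150 to 2365 in KPC. In C26 it was 381 to 401 CPM in controls and 162 to 327 with tumour, and in KPP 504 to 996 and 489 to 3244. Of 12 macrophage markers 0, 3, 1, 0 and 1 were higher and 0, 0, 1, 0 and 1 lower. Their sum was 27.9 to 30.2 CPM in LLC controls and 28.5 to 29.1 with tumour, 33.4 to 52.0 in Matrigel controls, 91.1 to 98.9 in KPCML1, 45.4 to 67.7 in KPC, 45.1 to 51.3 and 51.0 to 80.8 in C26, and 43.1 to 73.5 and 62.5 to 66.9 in KPP. Monocyte markers were higher for 1, 0, 1, 2 and 0 of 4 tested genes. Their sum was 3.1 to 5.4 CPM in LLC controls and 6.4 to 6.9 with tumour. In Matrigel controls it was 4.3 to 7.3 CPM, against 11.48 to 11.95 in KPCML1 and 4.01 to 4.02 in KPC. It was 6.1 to 6.2 CPM in C26 controls and 12.5 to 16.7 with tumour, and 4.9 to 9.0 and 5.3 to 7.3 in KPP. The sum was thus higher in KPCML1 with 0 genes called, and below both controls in KPC with 1 called. Lymphocyte markers summed to at most 1.31 CPM in any library. Of 6 keratinocyte markers 0, 0, 1, 0 and 0 were higher and 0, 0, 0, 1 and 2 lower. Their sum was 2.46 to 3.89 CPM in Matrigel controls, 3.39 to 4.60 in KPCML1 and 14.7 to 17.1 in KPC. It was 3.38 to 4.59 CPM in LLC controls and 2.70 to 2.86 with tumour. In C26 it was 60.8 to 88.0 CPM in controls against 3.84 to 8.19 with tumour, and in KPP 9.94 to 312 against 5.28 to 124. The part of these cells in the members' levels was not tested.

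**Figure D4:**
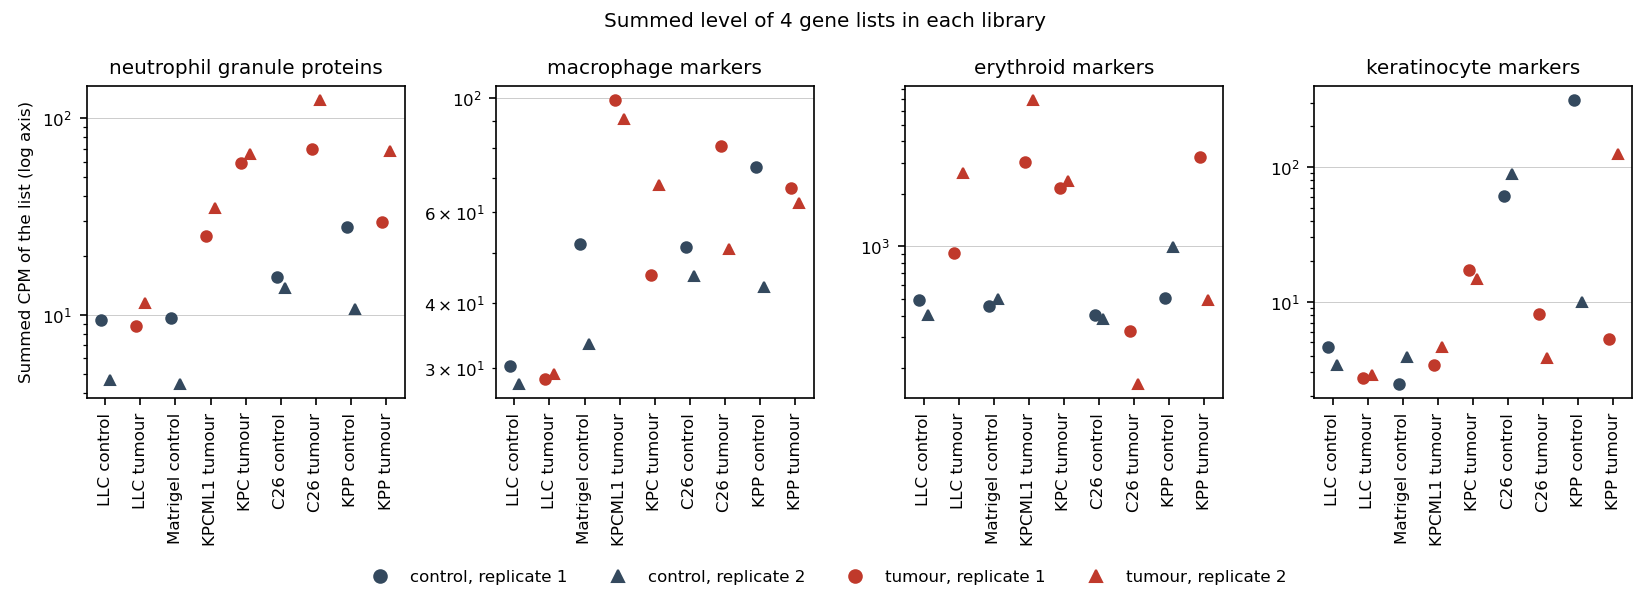
Summed CPM (log axis) of 4 gene lists in each library; circles are replicate 1, triangles replicate 2, controls dark and tumour groups red. The granule sum, most of it Lcn2 in C26 (mean 82.1 CPM in C26 tumour, where 1 of 12 granule genes was called), is highest in C26 replicate 2 (124 CPM), the erythroid sum reaches 6900 CPM in KPCML1, and the keratinocyte sum is scattered between 3.84 and 312 CPM across C26 and KPP.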

How the data were processed

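Per the labels, RNA from snap-frozen muscle was made into poly(A), directional libraries and sequenced as pairs. Per the submitters' processing notes the authors used bcl2fastq 2.20, FastQC, Salmon, DESeq2 and build mm10; the version and strand setting of Salmon were not given in the sources read. The deposited tables hold estimated counts per transcript, not normalised by the authors, and TPM, which Salmon scales within a library.

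Here, transcripts were matched to GENCODE M21 (139881 of 140825; unmatched ones held 0.416 to 0.693% of fragments), and counts were summed per gene and rounded. Genes passing filterByExpr of edgeR (4.0.16) were scaled by TMM and fitted with the quasi-likelihood method in 1 model of 9 groups (9 residual degrees of freedom); p-values were adjusted by Benjamini-Hochberg over 16089 genes and called below 0.05. TPM served for levels between genes. The labels do not say whether replicates are separate animals, so p-values measure the spread between these samples. Floors of 3 counts allow for counting error in the controls only, and 95% exact intervals cover counting error only. Near-identical genes share reads.

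Members and lists were chosen with earlier results of these data known. Named were all members, a core of pathway genes and up to 3 further genes of smallest p per list; those the text does not single out are in the list counts, and 1 gene of like pattern is not reported here. Alternatives were other size factors (RLE), DESeq2 (1.42.0), no filter, a replicate block, a crossed block in KPP, length-scaled counts and each library left out. With a library left out, a lone replicate is assumed to vary like other groups. The authors' deposited comparison tables were not used. R 4.3.3, Python 3.11.15, pandas 2.3.3, scipy 1.17.1 and matplotlib 3.10.9 were used.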

Additional observations from a re-analysis of the deposited data

Results flagged for a closer look

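For 10 named genes of the related lists, the change with tumour differed among the 5 models in edgeR's joint test over all genes. The genes are not independent of the choice of lists, and no explanation was tested. Lcn2 (adjusted p 0.0058) was not called in LLC (-0.93 ± 0.81, with controls at 1.34 ± 1.10 CPM) and had log2 fold changes of 3.00 to 7.33 in the other 4 models. Retn, the resistin gene (0.0164), was at 3.06 in KPCML1 and -2.35 in KPP. Cd14 (0.0186) was at 2.45 in KPC and 0.18 in C26. Hp, the haptoglobin gene (0.0202), was at 3.75 in KPC and -2.38 in KPP. Cxcl12 (0.0222) was at -0.62 in LLC and -2.43 in KPP. Gsdmd (0.0296) was at 0.65 in KPCML1 and -1.37 in KPC, which share controls. Ngp (0.0357) was at 4.28 CPM in KPC and at most 0.244 CPM in other groups. Cebpd (0.0468) was at 2.46 in LLC and 4.63 in KPC. Tlr2 (0.0473) was at 3.18 in LLC and -0.90 in KPC. Clec10a (0.0496) was at 2.81 in KPCML1 and 0.16 in LLC. With 1 library left out in turn, Lcn2 and Retn kept the call in all 18 fits, Cd14 in 17, Hp in 16, Cxcl12 in 14, Ngp in 10, Gsdmd in 8, Cebpd in 5, Tlr2 in 4 and Clec10a in 2. With the replicate block Lcn2 and Retn kept the call (0.01999 and 0.02788), and the other 8 lost it: Cd14 (0.0805), Hp (0.0664), Cxcl12 (0.0669), Gsdmd (0.0808), Ngp (0.0848), Cebpd (0.113), Tlr2 (0.0871) and Clec10a (0.116). Clec10a also lost it with RLE size factors. The lower values of Hp and Retn in KPP were not called without KPP control 1 or either KPP tumour library (adjusted p up to 0.294 and 0.147). Groups of 2 are too small for a formal outlier test of a sample.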

How the results depend on the processing

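Of the members' log2 fold changes, 201 of 208 values under the alternative fits moved by less than the spread between replicates. These fits were other size factors, DESeq2, no filter, a replicate block, length-scaled counts and, for KPP, the crossed block described below. With 1 library left out, 668 of 720 did. Any of the 18 libraries could be the missing one, and each comparison holds only 4 of them. Most of the 720 fits thus lost a library of other groups. The 668 therefore do not measure how far a fold change depends on its own libraries. Of the 720, 2 changed sign, both for Clec4d in LLC, which ranged from -1.65 to 1.68. It was 1.68 without LLC control 1 and 0.11 without LLC tumour 2, and the cause was not tested. The same replicate numbers did not pair the samples (correlations of their deviations -0.174 to 0.093), and with the replicate block, which spends degrees of freedom, genes called fell from 2193 to 1329 in LLC, from 1373 to 690 in KPCML1, from 964 to 241 between KPC and KPCML1, from 635 to 282 between control strains and from 1339 to 285 in the joint test, and list genes higher to 8 in LLC and 9 in KPCML1. A crossed block in KPP, chosen after seeing the data, gave 5553 genes against 5909. With no filter, genes called were 2244 in KPCML1, 1983 between KPC and KPCML1, 1318 between strains and 4128 in the joint test, and list genes higher in KPCML1 were 31. DESeq2 called 2061 in KPCML1 and 1722 between KPC and KPCML1; its joint test was not run. With 1 library left out, genes called ran from 480 to 2582 (LLC), 138 to 1705 (KPCML1), 1925 to 5128 (KPC), 1068 to 3746 (C26), 3199 to 6342 (KPP), 19 to 1983 (KPC against KPCML1), 275 to 713 (strains) and 428 to 2639 (joint). List genes higher ran from 2 to 14, 2 to 19, 9 to 35, 7 to 20 and 8 to 23 in LLC, KPCML1, KPC, C26 and KPP. S100a9 between KPC and KPCML1 had adjusted p of 0.0482 to 0.310 with 1 library left out. Depth limits Clec4e, which rests on 0 to 18 counts a library, and the control levels of all members, which rest on 0 to 23. Clec4d rests on 1 to 16 counts in the control libraries and 3 to 52 in the tumour libraries.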
